A study of Mus musculus with 40 samples.

Results

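The 56 genes described here encode proteins of the large and small subunits of the cytosolic ribosome in the mouse, 34 of the large subunit (Rpl and Rplp genes) and 22 of the small subunit (Rps genes). They were taken by their gene symbols from a list, and all 56 were found among the 54331 gene IDs of the deposited table. Cerebellar RNA was sequenced from male mice of the strain C57BL6, with the genotype given as DKO, CSB, INDY or WT and the diet as ketogenic (KD) or standard (SD). The 40 libraries were 5 DKO KD, 5 CSB KD, 6 INDY KD, 4 WT KD, 4 DKO SD, 6 CSB SD, 6 INDY SD and 4 WT SD. INDY is a name of Slc13a5, a plasma membrane citrate transporter, CSB stands for the product of Ercc6, a repair factor that couples to transcription, and DKO is a label the sources do not spell out. The sources used here give no allele and no age, and do not say whether each library is 1 mouse, so p-values measure only the spread between these libraries. In whole tissue, fewer cells of a type and less RNA per cell cannot be told apart.

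Each cytosolic ribosome carries a single copy of nearly every ribosomal protein, and cells make these proteins in step with ribosomal RNA. Their mRNAs are short, abundant and stable. Most begin with a C followed by a run of pyrimidines, the terminal oligopyrimidine (TOP) tract, which lets signalling through mTOR and the RNA-binding protein LARP1 set how much of each mRNA is translated and stored. Neurons carry ribosomes in the cell body, in dendrites and in axons. Spliced ribosomal protein mRNAs have often been copied back into the genome as processed pseudogenes, some of them almost identical to the parent gene.

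The start of transcription of some of these genes is shown because the TOP tract there is the sequence feature this class of mRNA is known for. Promoter sequences from RefSeq on GRCm38.p6 were at hand for 44 of the 56 genes. A run made of a C and at least 4 further bases that are each C or T, on the strand of the gene and with its C within 5 bases of the annotated start, was present in 20 of these 44 genes (45.5%), against 5718 of 27025 genes of the whole table (21.2%). The lines give 20 bases before and 20 bases after the annotated start base of Rpl35, Rplp2 and Rpl15, which have the run and were called in DKO SD against WT SD, of Rps6, which has it and was not called, of Rpl11, which was called and has no such run within 5 bases of its start, and of Rpl5, which has none there and was not called. Of the 10 called genes with a sequence, 4 had the run and 6 did not. Capitals mark the run from its first C within 5 bases of the start, and C or T before that stays in lower case.
Rpl35, chr2:39005111-39005151, minus strand: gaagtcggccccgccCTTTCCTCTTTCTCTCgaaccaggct
Rplp2, chr7:141447631-141447671, plus strand: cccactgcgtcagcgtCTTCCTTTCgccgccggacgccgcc
Rpl15, chr14:18270966-18271006, minus strand: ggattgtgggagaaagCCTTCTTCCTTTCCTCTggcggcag
Rps6, chr4:86857347-86857387, minus strand: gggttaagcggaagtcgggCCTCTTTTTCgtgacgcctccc
Rpl11, chr4:136053373-136053413, minus strand: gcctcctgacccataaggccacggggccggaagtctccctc
Rpl5, chr5:107900508-107900548, plus strand: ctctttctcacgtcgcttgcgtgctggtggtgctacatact
Absence of a run says only that these letters are not at the annotated start.

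Values are estimated read counts normalised by the authors. They summed to between 23736702 and 32247186 per library, which is not a depth, and the sequencing depth of the libraries is unknown. Slc13a5 stayed under 1 in every DKO and INDY library and lay between 82.1 and 161 in every CSB and WT library. Ercc6 had group medians of 639 in DKO KD, 634 in CSB KD, 590 in DKO SD and 590 in CSB SD, against 946 for INDY KD, 822 for WT KD, 887 for INDY SD and 930 for WT SD. In 2 libraries the values went against the label. The library labelled DKO SD 1 had 16.7 reads of Gabra6, a receptor subunit of cerebellar granule cells, and 11.5 of the Purkinje cell gene Pcp2, where the other 39 libraries had at least 1430 and 631. The library labelled WT KD 25 had 1041 reads of the transcript Gm6768, which was listed at 0 in the other 19 WT and INDY libraries and lay between 929 and 1245 in the CSB and DKO libraries. Its Ercc6 value was 633, the lowest of the WT and INDY libraries, and the CSB and DKO libraries lay between 382 and 876. The median differences of the 56 genes in the comparisons that use DKO SD 1 or WT KD 25 are given with and without them.

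All 56 genes reached 10 reads in 4 or more libraries and so passed the filter on low values. Compared per kilobase of annotated transcript, Rpl26, a large-subunit protein near the exit of the peptide tunnel, had the highest mean over the 40 libraries with 8650 reads per kilobase. Rps29, a small-subunit protein, followed with 8380, and Rplp1, one of the acidic proteins of the ribosomal stalk that recruits elongation factors, with 7713. At the other end stood Rpl12 with 183.8, Rps27 with 338 and Rpl5 with 441 reads per kilobase. The 3 lowest genes share a property that the choice of genes did not use. Each has a copy elsewhere in the genome that is identical to it over most of the length of the copy, and 92.9% of the reads of Rpl12 and its copies, 95.4% of those of Rps27 and 85.1% of those of Rpl5 were assigned to the copies. Rps20 was also low, with 562 reads per kilobase, and has an annotated transcript of 3706 bases, the longest of the 56 genes.

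The level of the whole set was lowest in WT SD, but WT SD did not stand clear of the other groups. The mean of log2(value + 1) over the 56 genes was 11.35 ± 0.12 in DKO KD (SD, n = 5), 11.32 ± 0.37 in CSB KD (n = 5), 11.19 ± 0.32 in INDY KD (n = 6), 11.32 ± 0.15 in WT KD (n = 4), 11.47 ± 0.07 in DKO SD (n = 4), 11.20 ± 0.14 in CSB SD (n = 6), 11.26 ± 0.17 in INDY SD (n = 6) and 11.02 ± 0.09 in WT SD (n = 4). The WT SD libraries had 11.05, 11.11, 10.90 and 11.04. Every library of DKO KD, WT KD and DKO SD lay above this range. In CSB KD 2 of 5 libraries, in INDY KD 3 of 6, in CSB SD 1 of 6 and in INDY SD 1 of 6 lay within or below it, and the lowest library of all was INDY KD 20 with 10.82. In order of their means the groups ran DKO SD, DKO KD, CSB KD, WT KD, INDY SD, CSB SD, INDY KD and WT SD, and the ranges of neighbours in that order overlapped in every case. The highest libraries were CSB KD 13 with 11.85 and INDY KD 22 with 11.73, in the groups that also held low libraries. The labels number the libraries, and the WT SD libraries are 39 to 42. The 5 libraries with higher numbers, CSB KD 43 and 44, INDY KD 45 and 46 and DKO KD 47, had 11.01, 11.06, 11.00, 11.36 and 11.45, so that 3 of them lay within the WT SD range.

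**Figure D1:**
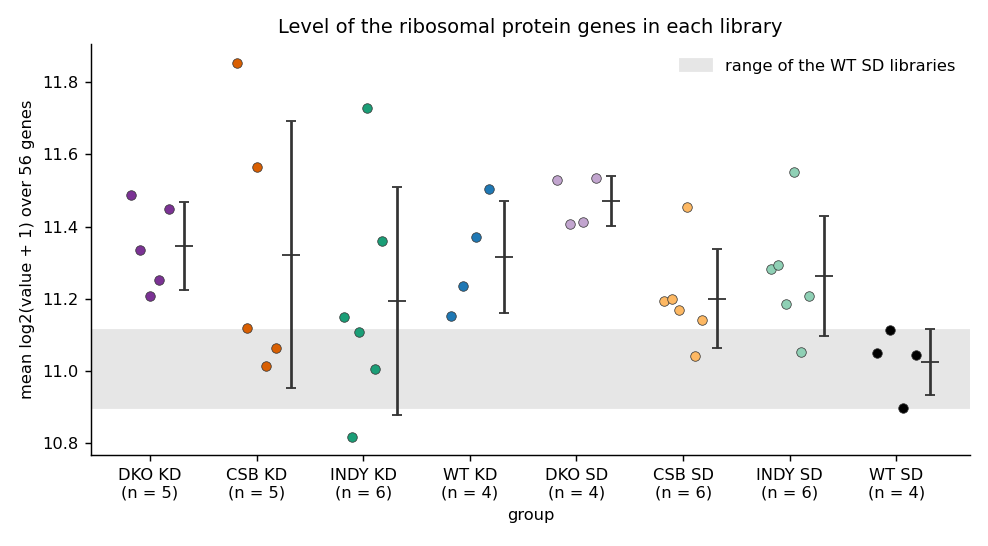
Mean log2(value + 1) over the 56 ribosomal protein genes (vertical axis) in each of the 40 libraries by group, with the group mean and SD beside the points and the range of the 4 WT SD libraries shaded. The DKO SD libraries lie between 11.41 and 11.53, above the shaded range of 10.90 to 11.11, while CSB KD and INDY KD spread from inside or below that range to 11.85 and 11.73.

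Gene by gene, WT SD had the lowest of the 8 group means for 49 of the 56 genes, and DKO SD had the highest for 51. No such count was made over all genes tested, so these numbers do not show how particular the order is to this set. The count for DKO SD rested on which libraries were used. With the 13 libraries highest in forebrain markers left out, DKO SD was highest for 17 genes and WT KD for 37, and WT SD was lowest for 38. The step from WT SD to the next group was small against the differences among the other groups. Its median over the genes was 0.13 on the log2 scale, and the median range among the other 7 groups was 0.30. For 4 genes the step exceeded that range: Rps16, Rpl39, Rpl11 and Rps12. For Rps16, a small-subunit protein near the decoding region, the step was 0.61 and the range 0.36. The 7 genes that were not lowest in WT SD were Rpl5, Rpl7, Rpl12, Rpl27, Rpl28, Rps7 and Rps27, and all but Rpl7 had 20% or more of their reads on copies. When each gene was summed with its near-identical copies, WT SD was the lowest group for 55 of 56 genes.

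Averaged over the other 7 groups and set against WT SD, 54 of 56 genes had a positive log2 difference, with a median of 0.27 against 0.01 for all 21367 genes tested. None of the 56 passed an adjusted p of 0.05 (limma, Benjamini-Hochberg over all genes tested), where 0.0468% of all genes were called higher and 0.00936% lower. At an unadjusted p under 0.05 the count was 39 of 56 genes, all higher, against 2422 higher and 2350 lower of all genes. Rps16 had the largest difference, 0.78 ± 0.20 (SE, limma, adjusted p = 0.0962), and Rps27 the smallest, -0.34 ± 0.55 (limma, adjusted p = 0.719). In the same comparison Rpl11 had 0.43 ± 0.12 (limma, adjusted p = 0.136).

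Ribosomal protein mRNAs were higher in DKO SD than in WT SD, and this was the only one of 29 comparisons with a call among the 56 genes. In all 13 genes rose, 7 of 34 of the large subunit (Rplp1, Rplp2, Rpl3, Rpl11, Rpl15, Rpl22 and Rpl35) and 6 of 22 of the small subunit (Rps2, Rps12, Rps15, Rps16, Rps28 and Rps29), and none fell. These 13 genes are 23.2% of the set, where 3.1% of all genes tested were called higher and 2.82% lower. The median difference of the 56 genes was 0.43 on the log2 scale, 55 were above 0, and 50 had an unadjusted p under 0.05. Over all genes tested, 3227 were higher and 3512 lower at that unadjusted threshold. The median of all genes tested was 0.00. For 49 of the 56 genes every DKO SD library lay above every WT SD library, as it did for 9.28% of all genes tested. The 7 genes whose libraries overlapped were Rpl5, Rpl7, Rpl10, Rpl12, Rpl27, Rpl30 and Rps27. The 13 calls depended on single libraries, as given below. Without DKO SD 1, which went against its label, 0 of the 56 genes were called.

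**Figure D2:**
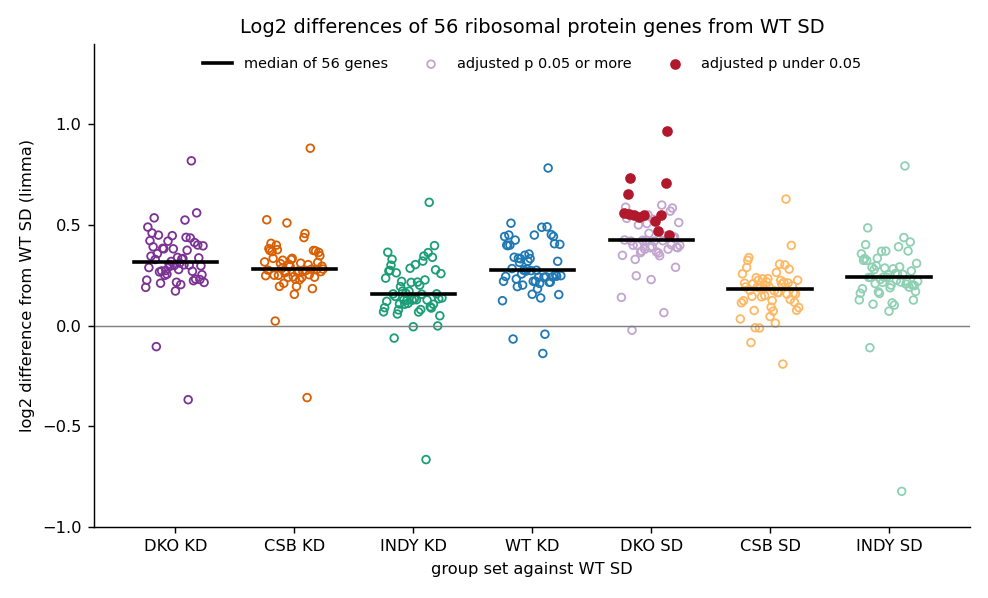
Log2 difference from WT SD (vertical axis, limma) of each of the 56 genes in the 7 other groups, with open circles for an adjusted p of 0.05 or more, filled red circles for an adjusted p under 0.05 and a bar at the median of the 56 genes. The medians run from 0.16 in INDY KD to 0.43 in DKO SD, and red points appear in DKO SD alone. All 7 groups are set against the same 4 WT SD libraries.

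Of the stalk proteins, Rplp1 changed most. It had 5803, 4143, 4552 and 4553 reads in DKO SD 1, 34, 35 and 36, against 3142, 3046, 2539 and 2675 in WT SD 39, 40, 41 and 42. Every DKO SD library was above every WT SD library, and the highest was the library labelled DKO SD 1. The log2 difference was 0.73 ± 0.19 (SE), a fold of 1.66 (limma, adjusted p = 0.0347), and it was 0.64 without DKO SD 1. Rplp2, its dimer partner, had 1803, 1327, 1629 and 1713 reads in DKO SD and 1224, 1134, 1102 and 1258 in WT SD. These values do not overlap either, and the log2 difference was 0.45 ± 0.13 (limma, adjusted p = 0.0440). Rplp0, the protein that anchors both dimers, had 3970, 4102, 3876 and 4503 reads in DKO SD and 3272, 3221, 2956 and 3118 in WT SD, and its difference of 0.39 ± 0.13 did not pass (limma, adjusted p = 0.0619).

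Rpl11 and Rpl5 form a particle with the small RNA of the large subunit and bind Mdm2 when ribosome assembly fails. Rpl11 rose in DKO SD, with 3492, 3275, 3639 and 3632 reads against 2504, 2574, 2156 and 2381 in WT SD. The lowest DKO SD library stood above the highest WT SD library, and the log2 difference was 0.55 ± 0.16 (limma, adjusted p = 0.0420). Rpl5 had 957, 815, 887 and 1036 reads in DKO SD and 930, 938, 915 and 957 in WT SD. The groups overlapped, and the log2 difference of -0.02 ± 0.11 did not pass (limma, adjusted p = 0.899). Summed with its copies, of which Gm15500 on chromosome 7 holds most reads, Rpl5 had a difference of 0.33 ± 0.13 (limma, adjusted p = 0.0885).

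Among the small-subunit proteins, Rps2, which lines the entry of the mRNA channel, had 5980, 4211, 4964 and 4384 reads in DKO SD, against 3238, 3401, 2555 and 2740 in WT SD. The groups did not overlap, and the log2 difference was 0.71 ± 0.19 (limma, adjusted p = 0.0379). Rps15, needed for export of the small subunit from the nucleus, had 4139, 3491, 3464 and 3571 reads in DKO SD and 2554, 2507, 2024 and 2233 in WT SD. Its libraries were likewise apart, with a log2 difference of 0.66 ± 0.18 (limma, adjusted p = 0.0380). Rpl15, a large-subunit protein, had 4286, 3829, 3815 and 4476 reads in DKO SD and 2894, 2992, 2622 and 2758 in WT SD, a difference of 0.54 ± 0.15 (limma, adjusted p = 0.0387). Rps29, the second highest gene per kilobase, had 4061, 3216, 3540 and 4063 reads in DKO SD and 2423, 2516, 2567 and 2541 in WT SD, a difference of 0.56 ± 0.16 (limma, adjusted p = 0.0437). Its groups did not overlap.

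Rps16 had the largest difference of the 56 genes, and 1 library decided its size. It had 1114, 1327, 1374 and 1306 reads in DKO SD and 926, 815, 808 and 295 in WT SD. The groups did not overlap, but WT SD 42 stood far below the other 3 WT SD libraries, and the lowest of the 36 libraries of the other groups had 684. The log2 difference was 0.97 ± 0.26 (limma, adjusted p = 0.0383) and was 0.59 without WT SD 42. The copy Rps16-ps2 on chromosome 5, identical to Rps16 over its 441 bases, had 82.1 reads in WT SD 42 and 274 to 290 in the other WT SD libraries, so both were low in that library.

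Rps6, the small-subunit protein phosphorylated downstream of mTOR, had 6990, 7338, 7007 and 8023 reads in DKO SD and 5491, 5964, 5325 and 6274 in WT SD. These did not overlap, but the difference of 0.35 ± 0.17 did not pass (limma, adjusted p = 0.148). Rps19, mutated in human Diamond-Blackfan anaemia, had 3242, 2623, 2689 and 2636 reads in DKO SD and 1814, 2148, 1766 and 1995 in WT SD, a difference of 0.53 ± 0.19 (limma, adjusted p = 0.0657). The X-linked genes did not pass. Rps4x had 5184, 4654, 4760 and 4780 reads in DKO SD and 3548, 4052, 3125 and 3768 in WT SD, a difference of 0.42 ± 0.16 (limma, adjusted p = 0.0719). Rpl39, a small protein of the peptide exit tunnel, had 2257, 1775, 1718 and 1812 reads in DKO SD and 1527, 1417, 980 and 1161 in WT SD. Its difference was 0.58 ± 0.22 (limma, adjusted p = 0.0783). Rpl10, needed to join the subunits, had 495, 443, 626 and 472 reads in DKO SD and 464, 508, 400 and 466 in WT SD. Here the groups overlapped and the difference was 0.14 ± 0.16 (limma, adjusted p = 0.578). Rpl26, the highest gene per kilobase, had 5268, 4955, 4849 and 6072 reads in DKO SD and 3751, 3947, 4002 and 4691 in WT SD, a difference of 0.37 ± 0.16 (limma, adjusted p = 0.110).

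**Figure D3:**
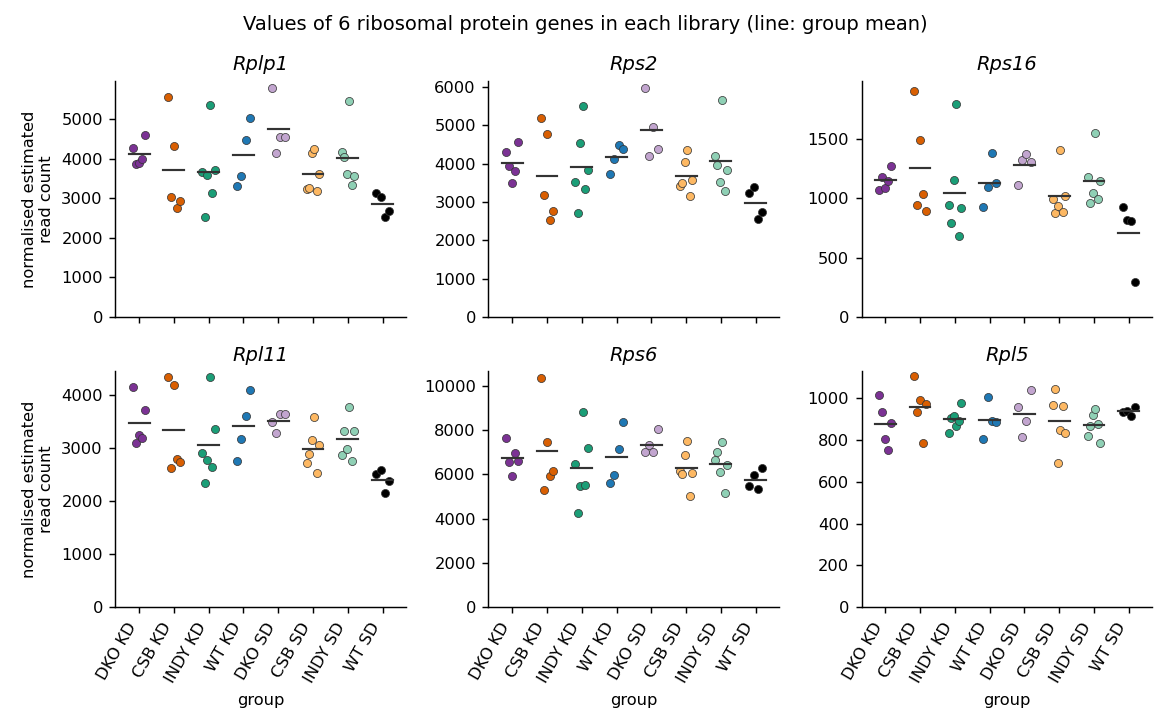
Normalised estimated read count (vertical axes, from 0) of Rplp1, Rps2, Rps16, Rpl11, Rps6 and Rpl5 in each library by group, with a line at each group mean. For the first 5 genes the DKO SD points lie above all WT SD points, for Rps16 a single WT SD library lies at 295, and the Rpl5 points of all groups overlap.

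The calls of DKO SD against WT SD depended on single libraries, while the median difference of the 56 genes moved little with single libraries left out. Some single genes moved more. Rps16 went from 0.97 to 0.59 without WT SD 42, and Rps7 from 0.60 to 0.37 without WT SD 39. With any of DKO SD 1, DKO SD 35, WT SD 39, WT SD 41 or WT SD 42 left out, 0 of 56 genes were called, and with WT SD 40 left out 3 were. The median of the 56 genes lay between 0.39 and 0.48 over all 40 libraries left out in turn, and it was 0.42 without DKO SD 1. Over all genes 5.92% were called with all libraries, 0.474% without DKO SD 1 and 0.0562% without WT SD 41. Of the genes described singly, Rps27 moved most without DKO SD 1, to 0.42. Without that library Rps2 had 0.61, Rps15 0.60, Rpl11 0.55, Rpl15 0.52, Rps29 0.52 and Rplp2 0.39. Without DKO SD 1, 49 of 56 genes still had every DKO SD library above every WT SD library, against 12.9% of all genes. Leaving out libraries of groups outside the comparison, which alters the estimate of the spread and, through the filter, the set of genes tested, gave 28 calls without INDY KD 20, 33 without INDY KD 22 and 24 without CSB KD 13, where 12.5%, 11.8% and 7.07% of all genes were called.

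The other groups gave no call against WT SD among the 56 genes (limma, adjusted p under 0.05). In DKO KD the median log2 difference was 0.31 and 54 of 56 genes were above 0. An unadjusted p under 0.05 was found for 32 genes, all higher, against 1834 higher and 1867 lower of all 21367 genes. At the adjusted threshold 0.0936% of all genes were called higher and 0.117% in either direction. In CSB KD the median was 0.28 with 21 genes at an unadjusted p under 0.05, against 1422 higher and 1906 lower of all genes. In INDY KD the median was 0.16 with 4 genes, against 900 higher and 466 lower. In WT KD, the diet comparison within WT, the median was 0.27 with 20 genes, against 1642 higher and 1226 lower. Without the library labelled WT KD 25 that median was 0.25, again with no call. In CSB SD the median was 0.18 with 3 genes, against 904 higher and 779 lower. In INDY SD it was 0.24 with 13 genes, against 1704 higher and 1359 lower. The genes of the set so counted were all higher. At the adjusted threshold 0.0234% of all genes were called in CSB KD, 0.00468% in INDY KD, 0% in WT KD, 0.136% in CSB SD and 0.00468% in INDY SD. These 6 comparisons share the WT SD libraries with each other and with that of DKO SD, so their shared direction is not independent evidence. Genes with every library above every WT SD library numbered 32 in DKO KD (5.26% of all genes), 4 in CSB KD (2.53%), 0 in INDY KD (0.449%), 21 in WT KD (5.13%), 5 in CSB SD (1.59%) and 14 in INDY SD (2.74%).

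Rpl11 had log2 differences from WT SD of 0.52 ± 0.15 in DKO KD, 0.44 ± 0.15 in CSB KD, 0.32 ± 0.14 in INDY KD, 0.49 ± 0.16 in WT KD, 0.55 ± 0.16 in DKO SD, 0.31 ± 0.14 in CSB SD and 0.39 ± 0.14 in INDY SD (SE). Only that of DKO SD passed, and the other adjusted p-values of limma lay between 0.144 in DKO KD and 0.718 in INDY KD. Rplp1 ran from 0.33 in CSB KD and in INDY KD to 0.73 in DKO SD. Rps6 ran from 0.09 ± 0.15 in INDY KD to 0.35 ± 0.17 in DKO SD. Rpl5 lay between -0.11 ± 0.10 in INDY SD and 0.02 ± 0.10 in CSB KD.

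Comparisons without WT SD gave no call among the 56 genes (limma). Among the 7 groups other than WT SD, no gene of the set passed the F test, where 0.253% of all genes were called. At an unadjusted p under 0.05 the F test gave 2 genes of the set, against 1413 of all 21367 genes. DKO SD had the highest values here too. Against CSB SD its median log2 difference was 0.27, with all 56 genes above 0, and 0.00468% of all genes were called. An unadjusted p under 0.05 was found for 18 genes, against 1596 higher and 1312 lower of all genes. Against INDY SD the median was 0.20, and 0.0608% of all genes were called. Here 1 gene had an unadjusted p under 0.05, against 613 higher and 703 lower of all genes. DKO SD was also set against the average of the 7 other groups, which takes in WT SD and so is not free of it. The median was 0.24 with all 56 genes above 0. There 0.00936% of all genes were called, and 23 genes had an unadjusted p under 0.05, against 1690 higher and 2083 lower of all genes. Without DKO SD 1 these 3 medians were 0.25, 0.17 and 0.20.

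On the ketogenic diet the genotypes lay closer. The median of the 56 genes was 0.03 for DKO KD, 0.00 for CSB KD and -0.13 for INDY KD, each against WT KD. Of all genes 0.00936%, 0.00468% and 0.00936% were called. At an unadjusted p under 0.05 there were 1, 1 and 2 genes of the set, against 1366, 1759 and 1409 of all 21367 genes. Without WT KD 25 these medians were 0.05, 0.04 and -0.09. DKO KD gave a median of 0.02 against CSB KD and of 0.16 against INDY KD (0.0281% and 0.0983% of all genes called, 0.0842% higher in the second). At an unadjusted p under 0.05 there were 0 and 1 genes of the set, against 369 and 1783 of all genes. Within genotypes, KD against SD gave medians of -0.13 in DKO, 0.11 in CSB and -0.07 in INDY, with 0.00468%, 0% and 0% of all genes called. The unadjusted threshold was passed by 0, 2 and 0 genes of the set, against 1732, 732 and 989 of all genes. Without DKO SD 1 the median in DKO was -0.10. In WT that median was 0.27, as above. The difference of the diet responses was tested directly. For DKO minus WT its median was -0.41 with 23 genes at an unadjusted p under 0.05, for INDY minus WT -0.36 with 15 genes, and for CSB minus WT -0.16 with 2 genes. These genes were all lower, against 2138, 1640 and 678 lower and 1850, 1426 and 691 higher of all genes. None of the 56 genes passed the adjusted threshold (limma), where 0%, 0.014% and 0% of all genes were called. Each of these differences takes in the WT SD libraries. Without WT KD 25 the medians were -0.37 for DKO, -0.34 for INDY and -0.14 for CSB, and without DKO SD 1 that of DKO was -0.38.

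Near-identical copies took a large share of the reads of 10 of the 56 genes, 20% or more each. The pairs with the largest shares were Rps27 with Rps27rt (chromosome 9, an annotated gene), Rpl12 with Gm10275 (chromosome 10, a processed pseudogene), Rpl10 with Rpl10-ps3 (chromosome 9) and Rpl5 with Gm15500. These copies match the parent transcript at 100% identity over 341, 634, 740 and 1018 bases. The parent transcripts have 345, 1242, 799 and 2045 bases. Reads from within the matching bases cannot be told apart between copy and parent, so the values of both are uncertain. Alone, Rps27 varied widely within groups, with 55.0, 595, 128 and 42.9 reads in DKO SD and 130, 317, 37.8 and 97.1 in WT SD. Both groups spanned several-fold ranges, and the difference was 0.06 ± 0.74 (limma, adjusted p = 0.960). Summed with its copies it was 0.63 ± 0.19 (limma, adjusted p = 0.0458). Rpl10 summed with its copies had 0.53 ± 0.16 (limma, adjusted p = 0.0442) and Rpl12 0.61 ± 0.18 (limma, adjusted p = 0.0432), where Rpl12 alone had 0.36 ± 0.20 (limma, adjusted p = 0.198). With all sums, 16 of 56 genes rose in DKO SD against WT SD, the 13 named before among them, and all 56 differences were above 0.

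Rps7 and its copy showed a split of libraries that followed no group, and were singled out after their values were seen. Rps7 lies on the minus strand of chromosome 12 (28630854 to 28635953 on GRCm38), and the transcribed processed pseudogene Gm6472 on the minus strand of chromosome X (152909505 to 152910155). Over bases 73 to 723 of the 954 bases of the Rps7 transcript they match at 99.386% identity and differ at 4 places, which are shown because they tell the 2 sequences apart within these 651 bases. The differences are G86A in the 5' untranslated part and T133G, G155A and G230T in the coding part, with positions counted from 1 at the 5' end of the Rps7 transcript, the base of Rps7 first and that of Gm6472 last. The lines give 10 bases to each side, with the differing base in capitals.
Rps7 at 86: tttctaagccGgcgatccgtc
Gm6472: tttctaagccAgcgatccgtc
Rps7 at 133: gccaagatcgTgaagcccaat
Gm6472: gccaagatcgGgaagcccaat
Rps7 at 155: gcgagaagccGgacgagttcg
Gm6472: gcgagaagccAgacgagttcg
Rps7 at 230: cgcagctgcgGgaactcaaca
Gm6472: cgcagctgcgTgaactcaaca
In 37 libraries Gm6472 held 13.4% to 26.0% of the reads of the pair. In WT KD 28 it held 57.3%, with 2298 reads against 1715 of Rps7, in WT KD 25 it held 55.0%, with 2299 against 1880, and in WT SD 39 it held 52.1%, with 1649 against 1515. These 3 are all WT libraries, 1 of them the library that went against its label, and the other 5 WT libraries lay in the range of the 37. The sum of the pair was 3165 in WT SD 39 and 3283 to 3514 in the other WT SD libraries. The group mean of Rps7 was lowest in WT KD. Its log2 difference of DKO SD from WT SD was 0.60 ± 0.21 (limma, adjusted p = 0.0664), 0.37 without WT SD 39 and 0.43 ± 0.17 when summed with its copies (limma, adjusted p = 0.0915).

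**Figure D4:**
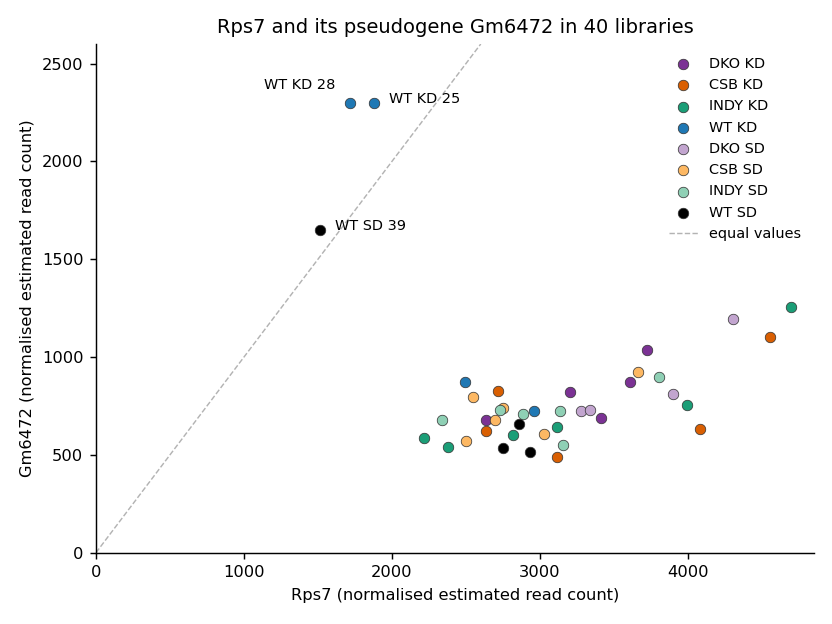
Normalised estimated read counts of Rps7 (horizontal axis) and its pseudogene Gm6472 (vertical axis) in the 40 libraries, coloured by group, with a dashed line of equal values. WT KD 28, WT KD 25 and WT SD 39 lie above the line with 1649 to 2299 reads of Gm6472, and the other 37 libraries lie below it with at most 1255.

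Other genes of the pathway were counted from lists, beside 3.1% of all genes tested that were called higher in DKO SD against WT SD and 2.82% called lower. Calls in this comparison depended on single libraries. Of all genes 1265 were called, but 101 without DKO SD 1 and 12 without WT SD 41. Neither these lists nor the marker lists below were counted again with libraries left out. Of 28 tested further cytosolic ribosomal proteins, 8 rose and none fell in DKO SD against WT SD, with a median log2 difference of 0.43. Among those with the smallest p were Rpl41, the shortest ribosomal protein, with 0.79 ± 0.23 (limma, adjusted p = 0.0422), and Rpl29 with 0.43 ± 0.12 (limma, adjusted p = 0.0428). Of 29 translation factors and other TOP mRNAs, 4 rose and none fell, with a median of 0.24. They were Eef1a1, the elongation factor that brings aminoacyl-tRNA, with 0.52 ± 0.13 (limma, adjusted p = 0.0350), Eif4a1, a helicase of initiation, with 0.37 ± 0.10 (limma, adjusted p = 0.0398), Eef1b2 with 0.49 ± 0.15 (limma, adjusted p = 0.0440) and Eif3h with 0.39 ± 0.12 (limma, adjusted p = 0.0478). Of 80 mitochondrial ribosomal proteins, which are encoded in the nucleus for the ribosome of mitochondria, 4 rose and none fell, with a median of 0.24. They were Mrps34, Mrpl12, Mrpl10 and Mrps12, with differences between 0.32 and 0.66, and their count lay near the share of all genes. Of 38 genes of ribosome biogenesis, Mrto4 rose by 0.41 ± 0.11 (limma, adjusted p = 0.0392) and Rrp1 by 0.22 ± 0.07 (limma, adjusted p = 0.0497), and the median was 0.16. These 2 calls likewise lay near the share of all genes. Of 24 genes that control ribosomal protein synthesis, such as Mtor, Larp1 and Myc, none passed and the median was -0.02. Outside this comparison a single gene of these lists was called, Nvl, a biogenesis ATPase. It fell by 0.56 ± 0.11 in DKO KD against INDY KD (limma, adjusted p = 0.0277) and by 0.47 ± 0.09 in DKO KD against the average of the 7 other groups (limma, adjusted p = 0.0256).

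The level of the 56 genes also moved with other measures of the libraries, whose part in the result was not tested beyond the values given here. Over 1610 protein-coding genes with transcripts of at most 1178 bases, ribosomal proteins left out, the median log2 deviation from the mean of the 40 libraries was -0.20 in INDY KD 20 and -0.15 in WT SD 41, the libraries lowest for the 56 genes. It was 0.31 in CSB KD 13 and 0.19 in INDY KD 22, the highest. By group it lay between 0.02 and 0.17 in the DKO SD libraries and between -0.15 and -0.06 in the WT SD libraries. Genes with transcripts of at least 6402 bases ran the other way, from 0.14 in INDY KD 20 to -0.17 in CSB KD 13. The non-coding RNAs Rn7s1, Rn7s2 and Rn7sk held 12.8% to 19.4% of all reads in DKO SD and 8.12% to 13.6% in WT SD. With every library centred within bins of transcript length, the median of DKO SD against WT SD was 0.26 with 7 genes called, where the median of all genes was -0.06. Within bins of GC content it was 0.36 with 4 called.

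**Figure D5:**
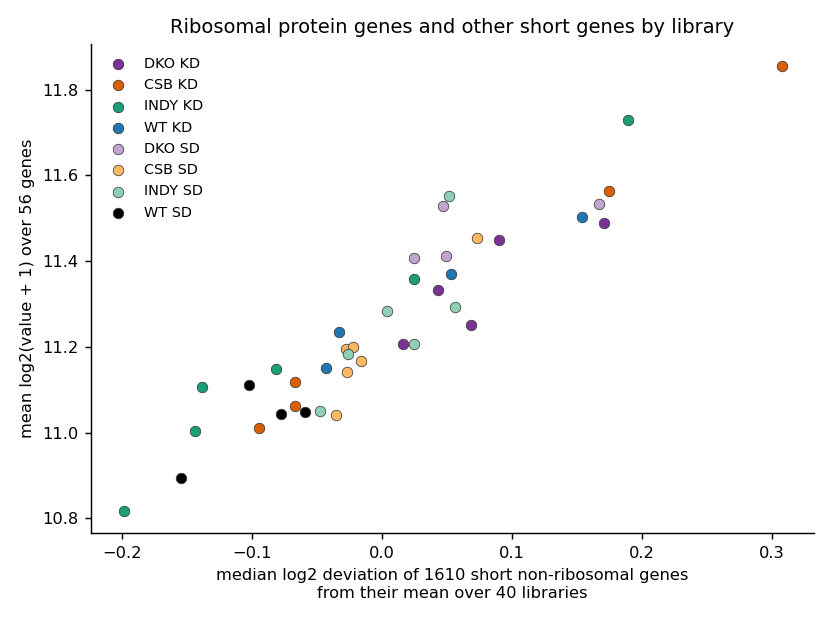
Mean log2(value + 1) over the 56 genes (vertical axis) against the median log2 deviation of 1610 short protein-coding genes that are not ribosomal (horizontal axis) in the 40 libraries, coloured by group. Both axes come from the same libraries, and the points run from INDY KD 20 at -0.20 and 10.82 to CSB KD 13 at 0.31 and 11.85.

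Markers of cell types were counted in the same way for DKO SD against WT SD, where 3.1% of all genes were called higher and 2.82% lower. Of 12 microglial markers 9 rose, and their summed value lay between 10069 and 11767 in DKO SD and between 5223 and 6590 in WT SD. Of 18 forebrain markers 1 rose, and their sum lay between 5824 and 47168 in DKO SD, the highest in DKO SD 1, and between 5500 and 6418 in WT SD. Of 10 granule cell markers none passed, and their sum lay between 5281, in DKO SD 1, and 65991 in DKO SD and between 46588 and 78181 in WT SD. Of 8 Purkinje cell markers 1 fell, and their sum lay between 26471 and 136701 in DKO SD and between 95925 and 176165 in WT SD. Of 16 choroid plexus markers and 20 liver markers none passed. Liver sums lay between 88.0 and 3734 in DKO SD and between 98.4 and 248 in WT SD, where 2 of the 20 genes stayed under 1 in every WT SD library. None of these 6 lists had another marker under 1 in every DKO SD or every WT SD library. Sums of the oligodendrocyte list lay between 144979 and 210276 in DKO SD and between 99092 and 174895 in WT SD. The sums of the astrocyte, endothelial and erythroid lists overlapped between these groups too. Calls in these further lists are not given here. With the forebrain, choroid plexus and liver levels as covariates the median of the 56 genes was 0.24 and 0 were called, and with the 13 libraries highest in forebrain markers left out it was 0.45 with 0 called. The part of microglial RNA in the result was not tested.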

How the data were processed

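The deposited table holds 1 value per gene and library for 40 libraries of total RNA depleted of ribosomal RNA. Each deposited value is a signal, namely an estimate of reads per gene that the authors had normalised between libraries. The submitters' processing notes name Bowtie2, Salmon, DESeq2 and the build mm9, with no versions or order. Values are not whole, so raw counts and depth were not recovered and no counting interval was computed, and the number of libraries limits the precision. All 40 value columns were used. Of 54331 IDs, 54097 matched GENCODE M21 (GRCm38) without version. Positions are those of that annotation.

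The fit used limma 3.58.1 (R 4.3.3; moderated, with an intensity trend and robust variances) on log2(value + 1). It covered the 21367 genes that reached 10 reads in 4 or more libraries. All 8 group means stood in 1 fit without covariates, and p-values are two-sided and Benjamini-Hochberg adjusted per comparison. Called means an adjusted p under 0.05. Differences are on the log2(value + 1) scale. The fit was tested on simulated data. Copies were found with blastn 2.17.0 (at least 95% identity over 80% of the copy). Per-kilobase values use 1 annotated transcript per gene, with RefSeq-matched ones first. Plots used matplotlib 3.10.9 (Python 3.11.15).

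Genes described singly are the stalk proteins, Rpl5, Rpl11, Rps6, Rps19 and X-linked members, the 5 called genes with the smallest p, the 3 highest and 3 lowest per kilobase and the extremes of the 7-group average. Members and lists were chosen with earlier results of these data known. Alternatives were pseudocounts, filters, scalings, length and GC bins, covariates, subsets and left-out libraries. Some genes of the pathway and marker lists are not reported singly here.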

Additional observations from a re-analysis of the deposited data

Results flagged for a closer look

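A single library stood far from the rest of its group in 4 of 152 groups of values examined for the genes described singly. Chance gives about 1 in 20, so these 4 are no more than chance alone would give. Rps16 in WT SD 42 had a log2 value of 8.21, where the other WT SD libraries had 9.66 to 9.86. Rps16 in CSB SD 26 had 10.46, where the other CSB SD libraries had 9.78 to 9.99. Rps19 in the library labelled DKO SD 1 had 11.66, where the other DKO SD libraries had 11.36 to 11.39. Rps29 in CSB KD 13, the library with the highest level of the whole set, had 12.34, where the other CSB KD libraries had 11.63 to 11.78.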

How the results depend on the processing

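Of the comparisons, DKO SD against WT SD depended on the processing. Its 13 calls became 0 without the filter on low values, with the forebrain, choroid plexus and liver covariates, without the libraries with high forebrain level, and without both libraries that go against their labels, the last chosen after seeing the data. They became 6 with equal sums over nuclear protein-coding genes, 7 with quantile normalisation, 7 within bins of transcript length, 4 within bins of GC content and 30 when only the groups compared were fitted, 11 of them shared with the 13. The count ranged from 0 to 33 with single libraries left out, while the median difference ranged from 0.39 to 0.48. DKO KD against WT SD had 2 calls when only the groups compared were fitted. No other comparison gained a call under any alternative run, left-out libraries included, where every such count ranged from 0 to 0. The number of genes lowest in WT SD was 49 and ranged from 39 to 51 with single libraries left out. It was 38 without the libraries with high forebrain level and 41 within length bins. Equal sums shifted the median of all genes by -0.08.

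Within length bins 53 of the 56 genes were above 0 in DKO SD, 49 in DKO KD and 51 for the other 7 groups, each against WT SD, and these were 55, 54 and 54 in the main analysis. Among the 18 genes described singly, directions turned as follows in 2 comparisons. In DKO SD against WT SD, Rpl5 was 0.33 when summed with copies and ranged from -0.080 to 0.035 with libraries left out. Rpl10 was -0.10 within length bins, -0.060 with covariates and -0.0012 without the libraries with high forebrain level. Rps27 was -0.013 with equal sums, -0.18 within length bins and -0.076 with covariates, and ranged from -0.72 to 0.57 with libraries left out. For the other 7 groups against WT SD, Rpl5 was 0.16 and Rps27 0.36 when summed with copies, Rpl10 was -0.036 within length bins and -0.012 with covariates, Rpl26 was -0.013 within length bins, and Rpl12 was -0.030 with covariates. Rps27 ranged there from -0.85 to 0.16 with libraries left out. The cause was not tested. No paired analysis was possible because no replicate number occurs in more than 1 group. Without raw counts, the depth behind low values is unknown.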
